A study of Mus musculus with 12 samples.

Results

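The interferon regulatory factors (IRFs) measured here were Irf1, Irf2, Irf3, Irf4, Irf5, Irf7, Irf8 and Irf9, which were chosen by gene family and not by any measured value. They made up 8 of 20551 genes in the count table, and all 8 were among the 13729 genes that passed the filter on low counts. The libraries held RNA of airway macrophages (AMs) from 6-week-old C57BL/6 mice, either Scnn1b-transgenic (Scnn1b-Tg) animals or wild-type (WT) littermates, and the question asked was how the genotypes differ at rest and in their answer to a bacterial product. The transgene codes for the beta subunit of the epithelial sodium channel and is driven by the promoter of club cell secretory protein, hence in airway epithelium and not in macrophages, and the mice develop mucus obstruction. The 4 groups were WT AMs in medium, WT AMs with 100 ng/ml lipopolysaccharide (LPS) from Pseudomonas aeruginosa, Scnn1b-Tg AMs in medium and Scnn1b-Tg AMs with the same LPS, each cultured for 12 h. Each group held 3 libraries, and each pool of lavages from 3 to 4 animals gave a medium and an LPS library (pools 16, 17 and 18 for WT, pools 17, 18 and 19 for Scnn1b-Tg). Libraries were prepared in 2 batches, with both lower-numbered WT pools and Tg pool 17 in batch 1 and the others in batch 2. The labels describe adherent lavage cells, whereas the methods describe AMs sorted by flow cytometry before LPS exposure, so the isolation cannot be settled from the sources.

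IRFs are transcription factors that share a DNA-binding domain for repeats of GAAA, the core of the interferon-stimulated response element. LPS engages TLR4, whose TRIF arm leads to phosphorylation of IRF3 and whose MyD88 arm engages IRF5, and the type I interferon that follows acts back on the cells through a complex that binds DNA by IRF9. IRF7 is itself induced by interferon and amplifies it, IRF1 is induced by interferons and NF-kappaB and activates antigen presentation and chemokine genes, IRF2 can occupy the same sites as IRF1, IRF4 competes with IRF5 for MyD88, and IRF8 partners with PU.1 in macrophage identity.

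The sequences that surround the start sites of Irf1, Irf7, Irf8 and Irf2 are shown because Irf1 and Irf7 had the largest rises with LPS, Irf8 was the member that fell, and Irf2 held a match to each motif searched. They come from RefSeq promoter entries on GRCm38.p6, the build of the files, and each runs 5′ to 3′ over 300 bases, 250 before and 50 after the start site. Capitals mark matches on either strand to TTCNNNGAA (the gamma-activated sequence), 2 copies of GAAA with 2 bases between (paired IRF half-sites) or GGG and TTTCC with 2 bases between (a kappaB site), and no match overlapped another in these windows. The Irf1 window lies at chr11:53769764-53770063 on the plus strand, the Irf7 window at chr7:141266375-141266674 on the minus strand, the Irf8 window at chr8:120736108-120736407 on the plus strand and the Irf2 window at chr8:46739495-46739794 on the plus strand.
Irf1: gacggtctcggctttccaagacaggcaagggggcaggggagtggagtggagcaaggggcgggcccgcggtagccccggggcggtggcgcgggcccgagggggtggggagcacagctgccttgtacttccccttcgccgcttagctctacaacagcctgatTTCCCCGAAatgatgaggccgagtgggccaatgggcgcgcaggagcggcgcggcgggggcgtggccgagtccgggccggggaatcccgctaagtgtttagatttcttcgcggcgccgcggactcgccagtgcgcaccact
Irf7: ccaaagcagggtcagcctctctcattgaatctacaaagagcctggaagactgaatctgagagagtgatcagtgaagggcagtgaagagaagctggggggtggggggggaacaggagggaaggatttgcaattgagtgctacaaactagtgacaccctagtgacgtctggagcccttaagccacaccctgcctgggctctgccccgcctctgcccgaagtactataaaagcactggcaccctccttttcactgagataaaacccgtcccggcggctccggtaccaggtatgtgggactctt
Irf8: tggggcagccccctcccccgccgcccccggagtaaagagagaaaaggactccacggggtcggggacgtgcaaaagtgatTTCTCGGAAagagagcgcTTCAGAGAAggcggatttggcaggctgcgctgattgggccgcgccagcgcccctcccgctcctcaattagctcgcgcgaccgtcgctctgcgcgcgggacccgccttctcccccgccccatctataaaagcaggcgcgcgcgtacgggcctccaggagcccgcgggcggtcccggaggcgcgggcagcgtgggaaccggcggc
Irf2: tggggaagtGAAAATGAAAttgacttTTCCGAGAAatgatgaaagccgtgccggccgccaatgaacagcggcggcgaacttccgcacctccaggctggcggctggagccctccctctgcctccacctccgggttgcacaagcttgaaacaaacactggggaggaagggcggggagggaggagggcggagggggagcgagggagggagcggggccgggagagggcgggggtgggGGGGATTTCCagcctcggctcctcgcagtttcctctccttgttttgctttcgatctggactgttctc

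Irf1 held 1 gamma-activated sequence match, TTCCCCGAA, from base -90 to base -82 relative to the start site. Irf8 held 2, TTCTCGGAA from -171 to -163 and TTCAGAGAA from -153 to -145. Irf2 held TTCCGAGAA from -224 to -216, the paired half-site GAAAATGAAA from -241 to -232 and the kappaB match GGGGATTTCC from -17 to -8. None of the motifs was matched in the windows of Irf3, Irf4, Irf5, Irf7 or Irf9. Of 32851 mouse promoters of the same length, 8.3% held a match to TTCNNNGAA, 3.44% to the paired half-sites and 1.63% to the kappaB site. These matches describe letters in a window and are not binding sites shown in these cells. Only these exact letter patterns were searched. A window without a match, such as that of Irf1 for the kappaB pattern, may therefore still hold another form of the site. For Irf9 the nearest RefSeq start lay 414 bases from the GENCODE start, and for Irf7 it lay 57 bases away.

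The 8 genes spanned a wide range of expression, and their order changed with LPS. Because longer genes gather more reads, levels of different genes were compared per kb of merged exons, as CPM per kb, where CPM are counts divided by the TMM-scaled library size. In WT medium, Irf8 was highest at 25.2 ± 1.96 CPM per kb (SD, n = 3), followed by Irf5 at 21.7 ± 2.47, and the libraries of these neighbours overlapped. Irf9, Irf1, Irf3, Irf7 and Irf2 followed at 11.4, 9.96, 8.47, 6.82 and 5.41 CPM per kb. Irf4 was last at 0.248 ± 0.0552 CPM per kb. All libraries of adjacent genes were separate only at the steps from Irf5 to Irf9, Irf1 to Irf3 and Irf2 to Irf4. After LPS the first place was taken by Irf7, with 37.6 ± 8.30 CPM per kb in WT and 55.0 ± 9.18 in Scnn1b-Tg AMs, whereas Irf8 had gone to rank 5 at 14.2 ± 0.246 and 14.9 ± 2.23. In WT LPS libraries the level of Irf7 overlapped that of Irf5 (29.8 ± 0.305 CPM per kb), and in Scnn1b-Tg LPS libraries it lay above every other member without overlap. Irf8 in medium, Irf7 after LPS and Irf4 throughout kept the first and last ranks when length was taken as the longest coding transcript, but the order of Irf2 and Irf3 turned in all 4 groups and several middle ranks moved.

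**Figure D1:**
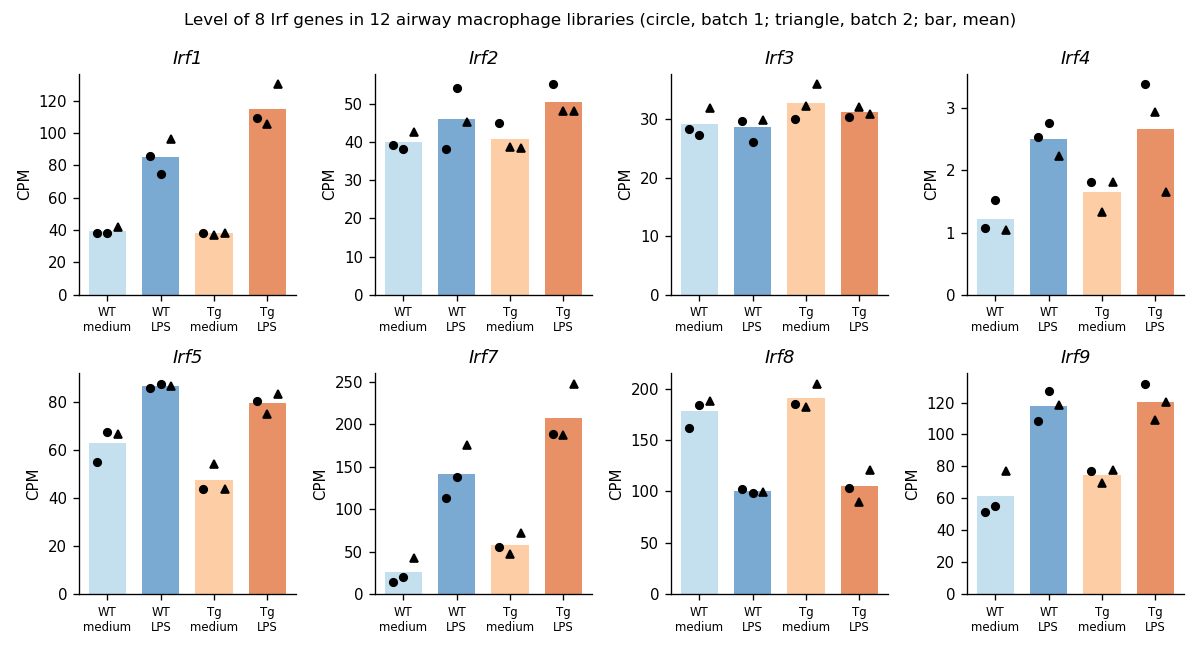
Expression of the 8 Irf genes in CPM (linear axis from 0, not divided by length) in each of the 12 libraries, with bars for the mean of 3 libraries per group, circles for batch 1 and triangles for batch 2. Irf1, Irf7 and Irf9 lie higher in every LPS library than in any medium library of the same genotype, Irf8 lies lower, and Irf3 stays between 26.1 and 36.0 CPM throughout.

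Summed over the 8 genes, expression per kb was 89.2 ± 11.1 in WT medium, 140 ± 10.9 in WT LPS, 97.5 ± 5.04 in Scnn1b-Tg medium and 165 ± 15.9 in Scnn1b-Tg LPS (CPM per kb, SD, n = 3). Irf8 held 28.4% of that sum in WT medium and 10.2% in WT LPS, and 27.7% and 8.99% in Scnn1b-Tg AMs. Irf7 went from 7.38% to 26.6% in WT AMs and from 15.7% to 33.2% in Scnn1b-Tg AMs. Irf5 was the second member in WT medium with 24.4%, against 16.8% in Scnn1b-Tg medium.

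**Figure D2:**
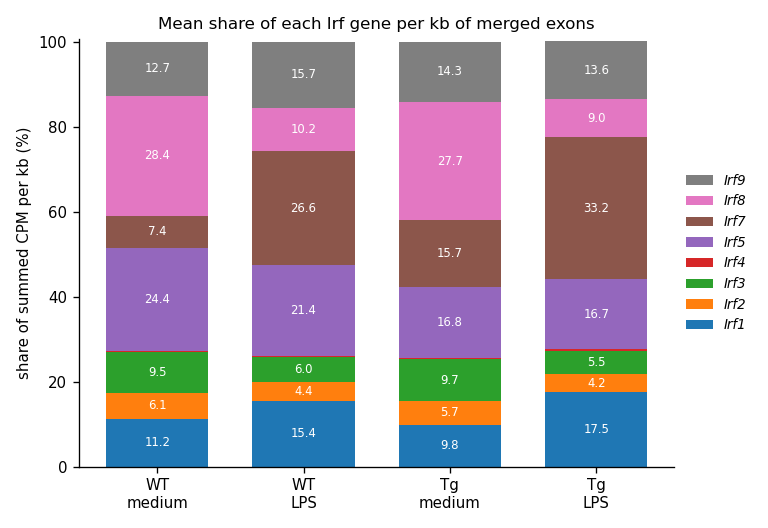
Mean share (%) of each Irf gene in the summed CPM per kb of the 8 genes, as stacked bars for the 4 groups. The Irf8 segment shrinks from 28.4% to 10.2% in WT and the Irf7 segment grows from 7.38% to 26.6%, and Irf4 holds under 0.4% in every group.

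LPS was compared with medium in each genotype to describe the response of the family. In WT AMs, 5 of 8 members rose (Irf1, Irf4, Irf5, Irf7 and Irf9), 1 fell (Irf8) and 2 were not called (Irf2 and Irf3), where 30.9% of all genes tested were called in either direction. In Scnn1b-Tg AMs, 4 members rose (Irf1, Irf5, Irf7 and Irf9), Irf8 fell and 3 were not called, against 36.7% of all genes tested. LPS and medium libraries did not overlap for 6 members in each genotype, where 38.7% of all genes tested in WT and 43.8% in Scnn1b-Tg AMs did not. The median log2 fold change of the members was 0.70 in WT and 0.67 in Scnn1b-Tg AMs, and that of all genes tested was 0.00 and -0.02. Tests were edgeR quasi-likelihood tests with the batch as a term, and p-values adjusted by Benjamini-Hochberg over all genes tested. The p-values measure the spread between libraries of a group. The fit had no term for the pool that a medium and an LPS library share. In bulk RNA fewer cells of a type cannot be told apart from less RNA per cell.

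**Figure D3:**
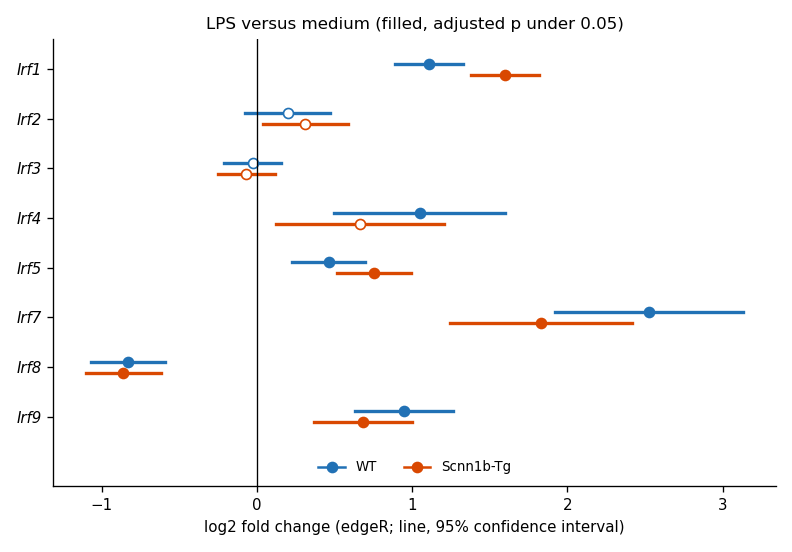
Fitted log2 fold change of LPS over medium for each Irf gene in WT (blue) and Scnn1b-Tg (orange) AMs, with 95% confidence intervals as lines, filled points for adjusted p under 0.05 in edgeR and open points otherwise. Irf7 has the largest rise in both genotypes (2.53 and 1.83), Irf8 lies near -0.83 and -0.86, and the intervals of Irf3 span 0.

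Irf1 (ENSMUSG00000018899, chr11:53770014-53778374, plus strand, mm10 as all positions here), the activator of chemokine and antigen presentation genes, more than doubled with LPS. Its level was 38.3, 38.3 and 42.2 CPM in WT medium and 86.0, 74.4 and 96.0 CPM in WT LPS (pools 16, 17 and 18), with log2 fold change 1.11 (SE 0.10, adjusted p = 1.11e-05 in edgeR). In Scnn1b-Tg AMs it was 38.2, 37.2 and 38.4 CPM in medium and 109, 106 and 130.2 CPM after LPS (pools 17, 18 and 19), with log2 fold change 1.60 (SE 0.10, adjusted p = 5.94e-07 in edgeR). The medium libraries of both genotypes thus lay within a narrow band, and the LPS libraries of Scnn1b-Tg AMs lay above those of WT AMs. Within batches 1 and 2 the log2 difference was 1.06 and 1.18 in WT and 1.51 and 1.63 in Scnn1b-Tg AMs. Gm17334, which shares 3.4% of the Irf1 exon bases on the other strand, was at or under 0.125 CPM in the mean of every group.

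Irf2 (ENSMUSG00000031627, chr8:46739732-46847458, plus strand), which binds the sites of IRF1, was not called in either genotype. Its libraries held 39.3, 38.3 and 42.5 CPM in WT medium and 38.2, 54.2 and 45.4 CPM in WT LPS, which overlapped (log2 fold change 0.20, SE 0.12, edgeR adjusted p = 0.273). In AMs of transgenic mice, 45.0, 38.8 and 38.5 CPM in medium stood against 55.2, 48.2 and 48.2 CPM after LPS without overlap (log2 fold change 0.31, SE 0.12, edgeR adjusted p = 0.0749). With the pool as a fixed block in edgeR this rise passed the threshold (adjusted p = 0.0396), as it did with the pool as a random effect in limma (adjusted p = 0.0293), and the adjusted p ran from 0.00945 to 0.233 over 21 alternatives.

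Irf7 (ENSMUSG00000025498, chr7:141262706-141266481, minus strand), the interferon-induced amplifier, had the largest fold change of the 8 members in both genotypes. It had 14.7, 20.5 and 42.0 CPM in WT medium and 113, 138 and 175 CPM in WT LPS, with log2 fold change 2.53 (SE 0.27, adjusted p = 4.76e-05 in edgeR). In Scnn1b-Tg AMs it had 55.6, 46.8 and 72.0 CPM in medium and 188, 187 and 248 CPM after LPS, with log2 fold change 1.83 (SE 0.26, adjusted p = 0.000287 in edgeR). Every Scnn1b-Tg medium library lay above every WT medium library, and the closest WT library was pool 18 of batch 2. Within batches 1 and 2 the LPS difference was 2.84 and 2.06 in WT and 1.76 and 1.89 in Scnn1b-Tg AMs (log2).

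Irf9 (ENSMUSG00000002325, chr14:55603571-55610030, plus strand), the DNA-binding subunit of the complex that answers type I interferon, rose with LPS from 51.7, 55.5 and 77.2 CPM to 109, 127 and 118 CPM in WT AMs (log2 fold change 0.95, SE 0.14, edgeR adjusted p = 0.000519). In AMs of transgenic mice it rose from 77.4, 69.5 and 77.9 CPM to 132, 109 and 120.1 CPM (log2 fold change 0.68, SE 0.14, edgeR adjusted p = 0.00322). WT pool 18 in medium was again the highest of the WT medium libraries and within the range of the Scnn1b-Tg ones. Rnf31, which shares 2.3% of the Irf9 exon bases on the same strand, also rose, by 0.72 in WT (edgeR adjusted p = 0.00414) and 0.63 in Scnn1b-Tg AMs (edgeR adjusted p = 0.00739). Within batches 1 and 2 the difference was 1.13 and 0.62 in WT and 0.77 and 0.64 in Scnn1b-Tg AMs (log2).

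Irf3 (ENSMUSG00000003184, chr7:44997648-45002848, plus strand), the constitutive factor that is activated by phosphorylation, was not called in either genotype. It held 28.3, 27.4 and 31.8 CPM in WT medium and 29.8, 26.1 and 29.8 CPM in WT LPS, and 30.0, 32.2 and 36.0 CPM in Scnn1b-Tg medium against 30.4, 32.1 and 30.9 CPM after LPS. The 95% confidence interval of the log2 fold change was -0.21 to 0.16 in WT and -0.25 to 0.11 in Scnn1b-Tg AMs (edgeR), and the libraries overlapped in both. Phosphorylation of IRF3 is not visible in transcript levels.

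Irf5 (ENSMUSG00000029771, chr6:29526625-29541871, plus strand), the factor of the MyD88 arm linked to inflammatory cytokines, rose by 37.7% in WT and 68.5% in Scnn1b-Tg AMs. WT medium libraries held 54.8, 67.6 and 66.7 CPM and WT LPS libraries 85.8, 87.6 and 86.7 CPM (log2 fold change 0.46, SE 0.11, edgeR adjusted p = 0.00704). Scnn1b-Tg libraries went from 43.9, 54.3 and 43.6 CPM in medium to 80.3, 75.0 and 83.4 CPM after LPS (log2 fold change 0.75, SE 0.11, edgeR adjusted p = 0.000255). The WT LPS libraries were the most alike of any group for this gene, with an SD of 0.89 CPM. Counting ignored strand and 14.1% of the Irf5 exon bases are shared with Tnpo3 on the other strand, so part of these counts may belong to Tnpo3, whose own log2 fold change with LPS was 0.10 in WT (edgeR adjusted p = 0.444) and 0.04 in Scnn1b-Tg AMs (edgeR adjusted p = 0.768).

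Irf4 (ENSMUSG00000021356, chr13:30749226-30766976, plus strand), the competitor of IRF5 linked to alternative activation, was expressed at a low level. It had 1.07, 1.53 and 1.05 CPM in WT medium and 2.54, 2.76 and 2.23 CPM in WT LPS, with log2 fold change 1.05 (SE 0.25, adjusted p = 0.00831 in edgeR). In Scnn1b-Tg AMs, 1.81, 1.33 and 1.81 CPM in medium overlapped 3.38, 2.93 and 1.65 CPM after LPS (log2 fold change 0.67, SE 0.24, edgeR adjusted p = 0.0553). The LPS library of Tg pool 19 stood below both other Scnn1b-Tg LPS libraries, and without it the log2 fold change was 0.90 (edgeR adjusted p = 0.0109). The call was also made with the pool as a random effect in limma (adjusted p = 0.0278), with DESeq2 (adjusted p = 0.0447) and with the deposited counts divided by 5 (edgeR adjusted p = 0.0412), and the adjusted p ran from 0.0109 to 0.209 over 21 alternatives. These levels rest on 52 to 192 deposited counts per library, against at least 820 for any other member. Irf4 is also a gene of plasma cells, and each of the 7 B cell and plasma cell markers was under 1 CPM in all 12 libraries, with Ebf1 at 0. Of all genes tested, edgeR called 15.2% higher and 15.7% lower with LPS in WT, and 18.8% and 17.8% in Scnn1b-Tg AMs. Of 7 dendritic cell markers tested, it called 2 higher and 1 lower with LPS in WT, and 3 higher and 0 lower in Scnn1b-Tg AMs. Among them, Zbtb46 held 0.41 to 0.48 CPM in WT medium and 1.80 to 2.89 CPM in WT LPS libraries. In Scnn1b-Tg AMs Zbtb46 held 0.13 to 0.84 CPM in medium and 2.49 to 3.08 CPM after LPS. Clec9a, of the same list, went the other way, from 0.197 to 0.543 CPM in WT medium to at most 0.0599 CPM in WT LPS. Its Scnn1b-Tg libraries held 0.291 to 0.467 CPM in medium and at most 0.152 CPM after LPS. Fitted LPS changes of the 7 markers were positive for 5 and negative for 2 in each genotype. The part of other cells in the level of Irf4 was not tested.

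Irf8 (ENSMUSG00000041515, chr8:120736358-120756694, plus strand), the lineage factor of mononuclear phagocytes, was the member that fell. Its WT libraries went from 162, 184 and 188 CPM in medium to 102, 98.9 and 99.1 CPM after LPS (log2 fold change -0.83, SE 0.11, edgeR adjusted p = 0.000182). Its Scnn1b-Tg libraries went from 185, 182 and 205 CPM to 104, 90.0 and 121 CPM (log2 fold change -0.86, SE 0.11, edgeR adjusted p = 0.000104). Irf8 fell by 43.7% in WT and fell by 44.9% in Scnn1b-Tg AMs, and the groups were far apart in both batches, with log2 differences of -0.78 and -0.92 in WT and -0.84 and -0.89 in Scnn1b-Tg AMs. Of the 14 AM markers, edgeR called 4 higher and 7 lower after LPS in WT (median -0.70, log2) and, for the Scnn1b-Tg libraries, 3 higher and 8 lower (median -1.09). Of all genes tested, 15.2% were called higher and 15.7% lower in WT, and 18.8% and 17.8% in Scnn1b-Tg AMs. Siglecf fell from 115 to 11.1 CPM in WT and Pparg from 122 to 28.9 CPM, while Adgre1 rose from 176 to 688 CPM. The summed level of 8 monocyte markers was 13.5 to 24.1 CPM in medium and 2.34 to 4.74 CPM after LPS. That fall was nearly all in Ace (14.1 to 1.10 CPM in WT, 20.1 to 1.79 CPM in Scnn1b-Tg AMs), and the median log2 fold change of the 5 monocyte markers tested was 0.24 and 0.83, 3 of them positive in each genotype. The summed level of 8 dendritic cell markers was 129.8 to 246 CPM in medium and 258 to 552 CPM after LPS, most of it from Bst2, an interferon-induced gene. Of these, 6 monocyte and 5 dendritic cell markers were under 1 CPM in all libraries. The part of these marker changes in the fall of Irf8 was not tested.

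Scnn1b-Tg and WT AMs were then compared in medium, to ask whether the family differed before LPS. These comparisons share their libraries with those of LPS over medium. In this comparison 0 of 8 members passed the threshold of adjusted p, where 0.262% of all genes tested did, and 2 had an unadjusted p under 0.05 in edgeR, as did 13% of all genes tested. Irf7 (higher) and Irf5 (lower) were the 2 members whose groups did not overlap, where 18.4% of all genes tested did not, 9.02% with the higher and 9.38% with the lower level in Scnn1b-Tg AMs. Irf7 reached 58.1 ± 12.8 CPM (SD, n = 3) in the transgenic group and 25.8 ± 14.4 CPM in WT AMs (log2 fold change 1.10, SE 0.26, edgeR adjusted p = 0.119). Its difference was 1.68 within batch 1 and 0.47 within batch 2 (log2), so the WT library of batch 2 came much nearer to the Scnn1b-Tg libraries than those of batch 1. Irf5 had the lower level, 47.3 ± 6.11 CPM, in the transgenic group, against 63.0 ± 7.17 CPM in WT AMs (log2 fold change -0.44, SE 0.11, edgeR adjusted p = 0.139), with -0.47 and -0.45 within the batches. DESeq2 called both, with adjusted p = 0.00262 for Irf7 and adjusted p = 0.0113 for Irf5, but it called 501 genes in this comparison where edgeR called 36. It was the 1 alternative of 21 to call them, and the adjusted p of the others reached 0.491 for either gene.

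The other members in medium had intervals that spanned 0. The log2 fold change of Scnn1b-Tg over WT was -0.10 for Irf1 (95% confidence interval -0.32 to 0.12), 0.05 for Irf2 (-0.23 to 0.33), 0.12 for Irf3 (-0.07 to 0.31) and 0.08 for Irf8 (-0.16 to 0.33). For Irf4 it was 0.56 (-0.01 to 1.13) and for Irf9 0.27 (-0.05 to 0.59), with 0.53 and -0.07 for Irf9 within batches 1 and 2. Among the marker lists, the summed level of 8 epithelial markers was 91.3 to 113 CPM in WT medium and 45.9 to 80.7 CPM in Scnn1b-Tg medium, and that of 8 neutrophil markers 20.7 to 24.2 and 27.4 to 37.8 CPM. The 8 monocyte markers summed to 13.5 to 18.97 CPM in WT and 19.1 to 24.1 CPM in Scnn1b-Tg medium, mostly from Ace, without overlap. Of these lists, 3 neutrophil markers (S100a9, Camp and Ngp) and 6 monocyte markers were under 1 CPM in all libraries. Ltf, also a neutrophil marker, was highest in WT medium pool 18 (7.11 CPM). The sums are therefore not counts of cells. The part of these marker differences in the differences of Irf7 and Irf5 was not tested.

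After LPS, 0 of 8 members differed between the genotypes by adjusted p in edgeR, where 0.051% of all genes tested did, and Irf1 alone had an unadjusted p under 0.05, as did 6.78% of all genes tested. Groups did not overlap for 4 members, higher in Scnn1b-Tg AMs for Irf1, Irf3 and Irf7 and lower for Irf5, where 9.11% of all genes tested did not overlap, 5.72% higher and 3.39% lower. Irf1 was 30.9% higher in Scnn1b-Tg AMs (115 ± 13.4 against 85.5 ± 10.8 CPM), with a log2 fold change of 0.39 and a 95% confidence interval of 0.17 to 0.61 (edgeR adjusted p = 0.295). DESeq2 put it just past the threshold (adjusted p = 0.0495), where it called 146 genes in all and edgeR 7, and over 21 alternatives the adjusted p ran from there to 0.971. Irf1 was named by the study from these same libraries, so its difference is not independent evidence. Irf7 was at 207.7 ± 34.7 CPM in the transgenic group against 142 ± 31.3 CPM in the WT group (log2 fold change 0.40, 95% confidence interval -0.18 to 0.98, edgeR adjusted p = 0.921). The fitted log2 difference was -0.15 for Irf5 (95% confidence interval -0.39 to 0.10) and 0.08 for Irf3 (-0.11 to 0.27). Tnpo3, which shares exon bases with Irf5, also differed by -0.15 after LPS, without overlap (edgeR adjusted p = 0.906). In medium Tnpo3 differed by -0.09, with overlap (edgeR adjusted p = 0.770). The part of Tnpo3 in the differences of Irf5 was not tested. The fitted log2 differences of the remaining members were 0.16 for Irf2, 0.18 for Irf4, 0.05 for Irf8 and 0.01 for Irf9. The 8 epithelial markers summed to 84.8 to 125.5 CPM in WT LPS and 38.4 to 71.5 CPM in Scnn1b-Tg LPS libraries, and their part in these differences was not tested.

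**Figure D4:**
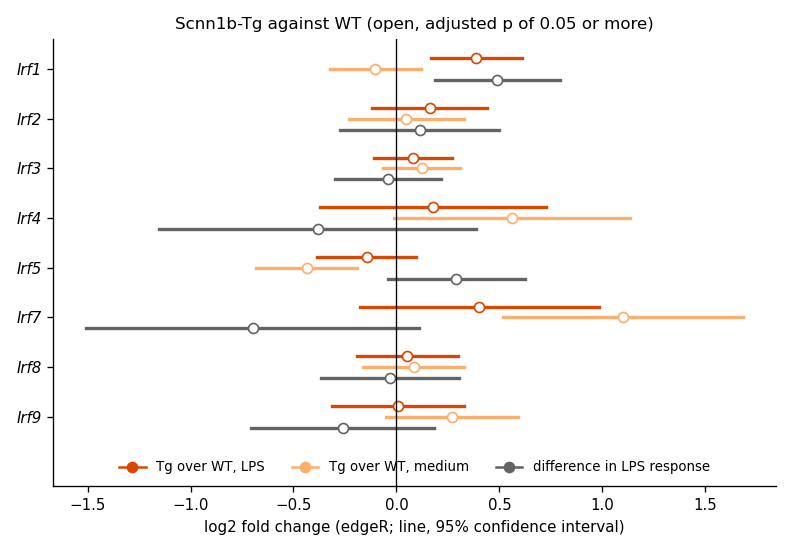
Fitted log2 fold change of Scnn1b-Tg over WT after LPS (dark orange) and in medium (light orange), and the difference of the 2 LPS responses (grey), with 95% confidence intervals as lines. Every point is open, since no adjusted p in edgeR was under 0.05, and the intervals that leave out 0 are those of Irf1 after LPS (0.17 to 0.61) and in the response, and of Irf5 and Irf7 in medium.

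Whether the genotypes answered LPS by different amounts was tested by the interaction. It was called for 0 of 8 members, against 0.0% of all genes tested in edgeR. Irf1 alone of the members had an unadjusted p under 0.05 in edgeR, as did 5.79% of all genes tested, and DESeq2 called 0 members and 77 genes in all. By pool, Irf1 changed by 1.16, 0.96 and 1.18 (log2) in WT pools and by 1.51, 1.50 and 1.76 in Scnn1b-Tg pools, without overlap (exact two-sided permutation p = 0.1, the smallest that 3 against 3 pools allow). The interaction of Irf1 was 0.49 (SE 0.14, edgeR adjusted p = 0.539). With the pool as a block, the adjusted p of this interaction was 0.2897 (fixed, edgeR) or 0.1985 (random, limma). Irf7 changed by 2.94, 2.74 and 2.06 in WT pools and by 1.76, 2.00 and 1.78 in Scnn1b-Tg pools, also without overlap (exact two-sided permutation p = 0.1), with an interaction of -0.70 (SE 0.37, edgeR adjusted p = 0.896). Pool changes of the genotypes did not overlap for 16.2% of all genes tested. For the other 6 members the pools overlapped, and their edgeR interactions lay between -0.38 (Irf4) and 0.29 (Irf5).

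Ratios of paired members within a library set antagonists and partners against each other, as log2 of the ratio of CPM per kb. Irf1 over Irf2 went from 0.88 ± 0.02 to 1.80 ± 0.39 (SD, n = 3) with LPS in WT AMs and from 0.79 ± 0.12 to 2.08 ± 0.23 in Scnn1b-Tg AMs. Irf7 over Irf3 went from -0.45 ± 0.68 to 2.16 ± 0.33 in WT and from 0.68 ± 0.24 to 2.59 ± 0.24 in Scnn1b-Tg AMs. Irf4 over Irf8 was higher after LPS by 1.89 in WT and 1.50 in Scnn1b-Tg AMs, and none of these 6 comparisons had overlapping libraries (exact two-sided permutation p = 0.1 each, the smallest possible). In WT medium Irf3 stood above Irf7 in pools 16 and 17 and below it in pool 18, while in Scnn1b-Tg medium Irf7 stood above Irf3 in every pool. The genotypes differed by 1.13 for Irf7 over Irf3 in medium, without overlap (exact two-sided permutation p = 0.1), and by 1.57 and 0.37 within batches 1 and 2. Irf5 over Irf4 was lower by 0.87 in Scnn1b-Tg than in WT medium, also without overlap (5.60 ± 0.44 against 6.47 ± 0.27, exact two-sided permutation p = 0.1). With LPS it changed by -0.59 in WT without overlap and by 0.12 in Scnn1b-Tg AMs with overlap. After LPS the genotypes overlapped for every ratio, by 0.28 (Irf1 over Irf2), 0.44 (Irf7 over Irf3), -0.04 (Irf4 over Irf8) and -0.15 (Irf5 over Irf4). In medium they overlapped for Irf1 over Irf2 (-0.09) and Irf4 over Irf8 (0.35). Ratios of other gene pairs were not computed.

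Genes that act before the IRFs were described by lists, and with LPS 15.2% of all genes tested rose and 15.7% fell in WT, and 18.8% and 17.8% in Scnn1b-Tg AMs (edgeR). Of 22 sensors, adaptors and kinases that lead to IRF activation, 11 rose and 5 fell with LPS in each genotype (median log2 fold change 0.36 in WT and 0.49 in Scnn1b-Tg AMs). Ikbke, a kinase of IRF3 and IRF7, rose by 1.36 in WT and 1.66 in Scnn1b-Tg AMs on the log2 scale (edgeR adjusted p = 6.9e-06 and 1.17e-06), and its adaptor Tank rose from 25.4 to 58.3 CPM (WT) and from 23.4 to 73.2 CPM (Scnn1b-Tg, edgeR adjusted p = 4.21e-05 and 3.24e-06). Cd14, the co-receptor that hands LPS to TLR4, had 57.4 CPM in medium and 575 CPM after LPS in WT AMs, against 34.8 and 598 CPM in the transgenic ones. It was the 1 gene of the list called between genotypes by edgeR, lower in Scnn1b-Tg medium by 0.79 (log2, SE 0.09, edgeR adjusted p = 0.0101). In that comparison DESeq2 called 3 of the 22. In edgeR 7 had an unadjusted p under 0.05, as did 13% of all genes tested. Of 16 interferon ligands, receptors and Janus kinases, 10 were in the table used here and 7 were tested. Against the shares of all genes that rose and fell with LPS, 4 rose and 1 fell in WT and 5 rose and 1 fell in Scnn1b-Tg AMs. Jak2 rose by 2.04 and 2.22, and the receptor chains Ifnar1 (0.70 and 0.87) and Ifnar2 (0.71 and 0.86) rose in both (log2, WT and Scnn1b-Tg). Ifnb1, the type I interferon of the TRIF arm, was at 0 in medium libraries and at most 0.133 CPM in any LPS library at 12 h.

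Partner and restraint genes were read against the same shares of all genes, 30.9% called with LPS in WT and 36.7% in Scnn1b-Tg AMs. Of 10 partners tested, 2 rose and 2 fell in WT and 3 rose and 2 fell in Scnn1b-Tg AMs (median log2 fold change 0.16 and 0.06). Batf, a bZIP partner of IRF4 and IRF8, rose by 0.67 and 1.16, and the coactivator Ep300 fell in Scnn1b-Tg AMs by 0.43 (edgeR adjusted p = 0.0216) but was not called in WT (-0.13, edgeR adjusted p = 0.484). Of 11 genes that restrain IRFs or their signalling, 6 rose and 1 fell in each genotype, among them Socs1 (2.65 and 3.07), Tnfaip3 (2.36 and 2.67) and Peli1 (1.79 and 1.96, log2, WT and Scnn1b-Tg). Between genotypes edgeR and DESeq2 called 0 genes of the partner and restraint lists. In edgeR 2 partners after LPS and 1 in medium had an unadjusted p under 0.05, where 6.78% and 13% of all genes tested did.

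Genes known as targets of the members were counted in the same way, where 15.2% of all genes tested rose in WT and 18.8% in Scnn1b-Tg AMs. Of 18 tested genes linked to IRF1, 15 rose and 0 fell in each genotype, among them Gbp2, which had 28.2 CPM in medium and 373 CPM after LPS in WT AMs, and 47.5 and 622 CPM in the transgenic ones. Nos2 and Il12b, which are among the 15, were at most 0.280 CPM in medium and passed the filter through the LPS libraries. Passing in that way favours a rise, so these 2 genes add no support to the count. The medians and means below include them. The list's median difference of Scnn1b-Tg over WT was 0.49 after LPS and 0.38 in medium on the log2 scale, where all genes tested had 0.00 and 0.01. The mean log2 CPM of the 18 genes was 3.94, 4.37 and 4.33 in WT LPS libraries and 4.75, 4.97 and 5.13 in Scnn1b-Tg LPS libraries, and 2.17, 1.81 and 2.17 against 2.56, 2.70 and 2.77 in medium. The libraries of the genotypes did not overlap in either condition, whereas those of Irf1 itself overlapped in medium. These means also include 2 low genes, Ciita and Cxcl9. Ciita was at most 0.798 CPM outside the Scnn1b-Tg LPS libraries (0.704 to 1.04 CPM), and Cxcl9 at most 0.342 CPM in any library. Taken singly, 7 of the 18 genes after LPS and 4 in medium were higher in Scnn1b-Tg AMs without overlap. Of all genes tested, 5.72% and 9.02% were. Ccl5, a chemokine for T cells, was the 1 gene of this list called between genotypes by edgeR, with LPS levels of 176 CPM (Scnn1b-Tg) and 38.4 CPM (WT) (log2 fold change 2.05, SE 0.13, edgeR adjusted p = 0.000229). DESeq2 called 1 of the 18 genes after LPS and 3 in medium, and 8 in each condition had an unadjusted p under 0.05 in edgeR. Of all genes tested, 6.78% after LPS and 13% in medium had such a p in edgeR. Cxcl10 had LPS levels of 35.9 CPM (Scnn1b-Tg) and 22.7 CPM (WT), which differed by 0.41 (log2, edgeR adjusted p = 0.884).

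Of 22 interferon-induced genes linked to IRF9, 21 rose in WT and 20 in Scnn1b-Tg AMs and none fell (edgeR), with median log2 fold changes of 2.22 and 1.97. The counts, medians and means of this list include Ifi44. Outside the Scnn1b-Tg LPS libraries Ifi44 was at most 0.1005 CPM, and it passed the filter through those libraries (0.247 to 0.616 CPM). Isg15, a ubiquitin-like modifier, rose by 3.24 in WT (edgeR adjusted p = 3.9e-06) and 2.90 in Scnn1b-Tg AMs (edgeR adjusted p = 5.26e-06), and Oasl1 rose by 4.02 and 3.78. Herc6, an ISG15 ligase, had a medium level of 25.8 CPM (WT) and 36.6 CPM (Scnn1b-Tg), and an LPS level of 104 and 151 CPM. In medium 0 of the 22 were called between genotypes by edgeR and 3 by DESeq2. Of the 22, 11 had an unadjusted p under 0.05 in edgeR, as did 13% of all genes tested. In medium 21 of 22 fitted differences were positive, and the median of the 22 was 0.70 (log2). After LPS 0 were called by either tool, and the median was 0.36. After LPS 2 had an unadjusted p under 0.05 in edgeR, as did 6.78% of all genes tested. The mean log2 CPM of the 22 genes was 2.53 and 2.82 in WT medium pools 16 and 17 and 4.10 in WT pool 18, against 4.07, 4.05 and 4.39 in Scnn1b-Tg medium. WT pool 18 therefore lay with the Scnn1b-Tg medium libraries for these genes, as it did for Irf9, and its Irf7 level was the nearest to them.

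**Figure D5:**
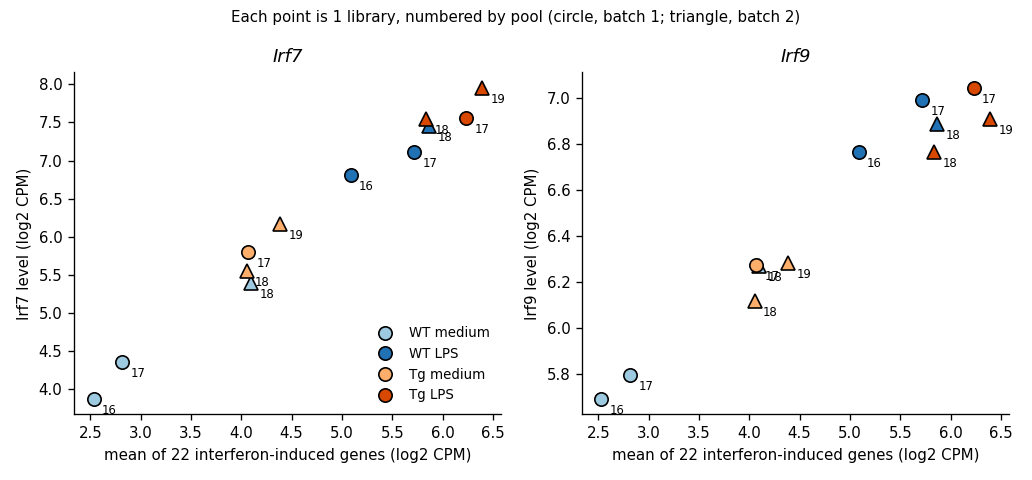
Level of Irf7 (left) and Irf9 (right) in log2 CPM against the mean log2 CPM of 22 interferon-induced genes linked to IRF9, 1 point per library, coloured by group, numbered by pool, with circles for batch 1 and triangles for batch 2. WT medium pools 16 and 17 lie lowest (2.53 and 2.82 on the horizontal axis), WT medium pool 18 lies with the Scnn1b-Tg medium libraries near 4.1 (in the Irf9 panel its point is mostly covered by that of Tg medium pool 17), and the LPS libraries lie at 5.09 or more.

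Of 8 cytokine genes linked to IRF5, 6 were tested. Of these, Il6 and Il12b were near 0 in medium (at most 0.122 and 0.280 CPM) and passed the filter through the LPS libraries, so the list's count and median are not given. Tnf rose by 4.80 in WT and 5.43 in Scnn1b-Tg AMs, Il1b by 5.73 and 6.46, and Ccl3 by 4.53 and 5.32 (log2), while Irf5 itself held 85.8 to 87.6 and 75.0 to 83.4 CPM after LPS. Of 9 tested genes linked to IRF4, 2 rose and 1 fell in WT and 2 rose and 2 fell in Scnn1b-Tg AMs. Of all genes tested, 30.9% in WT and 36.7% in Scnn1b-Tg AMs were called in either direction. Kdm6b, a histone demethylase, rose by 2.22 and 1.51, and Mrc1, the mannose receptor, fell in both genotypes, from 257 to 94.5 CPM (WT) and from 309 to 94.3 CPM (Scnn1b-Tg). Between genotypes edgeR called 0 genes of these lists, and DESeq2 called 1 linked to IRF5 in medium. In edgeR 3 linked to IRF5 after LPS and 2 in medium, and 0 and 4 linked to IRF4, had an unadjusted p under 0.05. Of all genes tested, 6.78% after LPS and 13% in medium had such a p. Socs1, Usp18, Il12b, Mrc1, Bst2 and Clec10a each stood in 2 of the lists used, markers included, so the lists are not independent of each other.

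Irf7 and Irf9 also varied together among libraries of the same group. After each group mean was taken off, their log2 CPM had a Pearson r of 0.82 over 12 libraries, the highest of any pair of members. The genes most like Irf7 out of 9100 compared were Ifit3 (r = 0.977), Ifit3b (0.966) and Msl3l2 (0.951), and those most like Irf9 were Lgals3bp (0.969), Rsad2 (0.966) and Cmpk2 (0.966). Of the 50 genes most like each, 9 were on the list of 22 interferon-induced genes, and for Irf1, Irf2, Irf3, Irf5 and Irf8 there were 0. These values describe 12 libraries that share pools and batches, and counts of Ifit3 and Ifit3b may be split between near-identical copies.

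Total deposited counts were 48191248 to 60896505 per library, with 14918 to 16165 genes detected. The 14 AM markers summed to 5140 to 6942 CPM, with Cd68 as the most abundant, and none was at 0. The 8 T and NK cell markers summed to 144.5 to 211 CPM in medium and 15.6 to 38.4 CPM after LPS, of which Cd2 gave at least 83.8% in each group mean.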

How the data were processed

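RNA from 12 libraries (SMART-Seq v4, 125 bp read pairs) was aligned by the authors to mm10 with HISAT2 without strand, and gene counts on GENCODE M20 were estimated from StringTie coverage, so the deposited counts are not tallies of whole reads. Symbols and positions came from GENCODE M21 (20132 of 20551 IDs matched, and the 419 others held 0.26% of counts).

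Low genes were dropped with filterByExpr (10 counts, total of 15), and the rest were scaled by TMM and fitted with group and batch in edgeR 4.0.16 (R 4.3.3), two-sided, with Benjamini-Hochberg adjustment over 13729 genes and a threshold of 0.05. CPM use the TMM factors, and log2 CPM a prior count of 2. Depth was 48191248 to 60896505 counts. The fits were tested on simulated data. Alternatives were DESeq2 1.42.0, limma 3.58.1 with the pool as a random effect (correlation 0.327), other filters and scalings, a pool block, single batches and leaving out each library. Ratios and pool changes were tested by exact permutation.

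Medium and LPS libraries of 1 number and genotype share a title number in the labels and were taken as 1 pool, and their deviations correlated at 0.137 to 0.335. WT and Scnn1b-Tg libraries share only numbers. The members and lists were chosen with earlier results of these data known. From each list, the 3 genes with the lowest p for LPS in Scnn1b-Tg AMs and at least 5 CPM, and each gene called between genotypes, were named. For each member but Irf4 (under 5 CPM) the 3 genes most like it were named. Ifnb1 and overlapping genes were named after their values were seen. Results for some listed genes are not reported here.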

Additional observations from a re-analysis of the deposited data

How the results depend on the processing

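Of 832 refits of single members under alternatives, 797 kept direction and side of the threshold, 14 passed it newly, 0 lost it and 21 changed sign, all of these for uncalled members with values near 0. With the pool as a block, 6 members were called for LPS in WT AMs (fixed or random) and 6 (fixed) or 7 (random) in Scnn1b-Tg AMs, where Irf2, and with the random effect Irf4, were added. It changed no other member's call. WT and Scnn1b-Tg libraries shared 2 title numbers (17 and 18), each within 1 batch, and their deviations correlated at 0.11 to 0.261 (0.134 and 0.145 for WT 18 with Tg 19, of the same batch). With the title number as a block, edgeR called 0 members, and 12 genes after LPS and 48 in medium. DESeq2 called 1 member after LPS and 2 in medium between genotypes, where edgeR called 0, and 146, 501 and 77 genes after LPS, in medium and for the interaction, where edgeR called 7, 36 and 0 (1 to 12, 4 to 61 and 0 to 1 under the other alternatives). The cause was not tested.

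Sign changes (log2) were Irf3 with LPS in WT (0.0026 without a filter, 0.0047 with only the groups compared), Irf9 after LPS (-0.0089 without a filter) and, with the title number as a block, Irf8 (-0.0471) and Irf9 (-0.073) after LPS and Irf2 (-0.0158) and Irf8 (-0.0071) in medium. Within batch 1, Irf4 over Irf8 after LPS was 0.31, Irf5 over Irf4 with LPS in Scnn1b-Tg AMs was -0.026 and Irf1 over Irf2 in medium was -0.22, and within batch 2 Irf7 over Irf3 in medium was 0.37. By longest coding transcript, a choice made after seeing the data, Irf2 lay above Irf3 by 0.16 and 0.39 (WT) and 0.0196 and 0.40 (Scnn1b-Tg) in medium and after LPS.

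Leaving out 1 library, Irf3 with LPS in WT ran from -0.0773 to 0.0214, Irf8 after LPS from -0.049 to 0.15, Irf9 after LPS from -0.15 to 0.0811 and Irf2 in medium from -0.032 to 0.15. Interactions ran from -0.017 to 0.24 (Irf2), -0.0838 to 0.0182 (Irf3) and -0.15 to 0.0804 (Irf8). Ratios ran from -0.25 to 0.38 (Irf4 over Irf8 after LPS), -0.22 to 0.38 (Irf5 over Irf4 with LPS in Scnn1b-Tg AMs) and -0.49 to 0.0511 (Irf5 over Irf4 after LPS). Without WT LPS library 16, Irf2 was called with LPS in WT AMs (0.34, edgeR adjusted p = 0.0297). Irf4 had the fewest counts, 52 to 192 per library.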

Other observations

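The genes whose levels followed the remaining members among libraries of the same group, after each group mean was taken off, were outside the interferon list. Over 12 libraries and 9100 genes, Irf1 was most like Hey1 (r = 0.965), Nmral1 (0.940) and Auh (0.913), Irf2 was most like Ankrd52 (0.939), Cbl (0.923) and F11r (0.921), and Irf3 was most like Cxcl14 (0.945), Kctd13 (0.934) and Il27ra (0.925). Irf5 was most like Glmp (0.906), Eno1 (0.864) and 1810055G02Rik (0.852), and Irf8 was most like Aldh1l1 (0.924), Fam3a (0.918) and Slc46a3 (0.918). Among the members, Irf1 and Irf4 had the lowest r (-0.667). These are descriptions of libraries that share pools and batches, and no test was made.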
